A study of Mus musculus with 4 samples.

Results

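The Wdfy4 locus of mouse dendritic cells is described here from open chromatin lists of type 1 classical dendritic cells (cDC1) and plasmacytoid dendritic cells (pDC). Its members are all listed intervals of open chromatin and all footprints that overlap mm9 chr14:33700000-34050000, a window of 350 kb. The window holds Wdfy4, which lies on the minus strand at about 33.77 to 34.00 Mb, with a flank on each side. In cDC1 the window held 59 of 83701 intervals and 280 of 513689 footprints. In pDC it held 9 of 51941 intervals and 44 of 312959 footprints. The locus was chosen by readout, for the number of its intervals listed in cDC1 only, and every comparison of the cell types below is therefore a description without a test.

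Both cell types were grown from mouse bone marrow in culture, first with a mix of cytokines and then with Flt3 ligand, the growth factor that drives dendritic cell formation. The cDC1 were sorted as CD11c+ CD11b+ XCR1+ cells, which the labels call classical dendritic cells, and the pDC as CD11c+ CD11b- B220+ cells. No genotype, strain, age or further treatment is given in the sources used here. Omni-ATAC-seq, in which the Tn5 transposase cuts and tags accessible DNA, was run in 2 replicates per cell type, and the authors merged the replicates before footprinting, so that 1 merged list per cell type is compared and no replicate error can be given.

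WDFY4 is a large protein with a BEACH domain and WD repeats, a build shared with proteins of vesicle traffic. In mouse cDC1 it is required for cross-presentation, the display of peptides from engulfed cells on MHC class I to CD8+ T cells, and loss of Wdfy4 leaves the presentation of antigen on MHC class II in place. pDC are known for the secretion of type I interferon rather than for cross-presentation. ATAC-seq reads accessible DNA at promoters and enhancers, and a footprint is a short stretch inside such an interval that is shielded from cuts, as a bound transcription factor would shield it.

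The RefSeq promoter of Wdfy4 is shown because one of the strongest regions of the window in both cell types lay next to the approximate start of the gene. It covers 250 bases before and 50 after the transcription start at chr14:33185017-33185316 on the minus strand of GRCm38.p6, a later build than that of the lists, so its place within the mm9 interval was not determined. It reads, with the single match to the motifs searched in capitals, 5′ to 3′ along the gene:
Wdfy4 promoter: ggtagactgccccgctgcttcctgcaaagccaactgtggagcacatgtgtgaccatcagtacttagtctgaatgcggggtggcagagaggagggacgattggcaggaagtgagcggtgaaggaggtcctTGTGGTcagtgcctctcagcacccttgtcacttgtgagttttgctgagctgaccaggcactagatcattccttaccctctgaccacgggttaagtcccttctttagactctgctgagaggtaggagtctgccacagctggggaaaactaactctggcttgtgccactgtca
The capitals mark the Runx motif TGTGGT at positions 130 to 135 of this window, a motif that 16.8% of 32851 RefSeq promoters of the same length hold on either strand. The letters of the AP-1 motif TGANTCA (in 7.81% of promoters), the E-box CAGGTG (20.2%), the ETS motif GAGGAAGT (3.20%), a composite ETS/IRF motif (2.72%), a doubled interferon response motif (3.44%) and a composite AP-1/IRF motif (0.119%) were not in this window on either strand. The composite AP-1/IRF motif contains the AP-1 letters. Only these fixed letter patterns were searched, so related forms of the motifs may be present in the window. In the RefSeq order of genes, Lrrc18 lies inside Wdfy4, Vstm4 is the next gene on the side of its 3′ end and Arhgap22 the next on the side of its 5′ end. Regions of the window were assigned to none of these genes.

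Open chromatin was listed along the whole of Wdfy4 in cDC1 and at 9 places of the window in pDC. Intervals covered 27227 bp of the window in cDC1 and 4552 bp in pDC, or 7.78% and 1.30% of its length. That is 169 intervals per Mb in cDC1 and 25.7 per Mb in pDC. All 9 pDC intervals overlapped a cDC1 interval, so the merged set had 59 regions, of which 9 were shared, 50 were listed in cDC1 only and 0 in pDC only. The share listed in cDC1 only was 84.7% of the cDC1 intervals (95% Wilson interval 73.5 to 91.8), beside 50.9% over the whole cDC1 list. The share listed in pDC only was 0%, with a Wilson upper bound of 29.9%, and a count of 0 among 9 allows up to 33.3%, beside 19.7% over the whole pDC list. These intervals cover counting error only, and neighbouring regions are not independent. The locus was chosen for its number of intervals listed in cDC1 only, so the distance of that share from the whole list is no test.

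Within the gene span, 37 regions were listed in cDC1 only and 5 were shared. The flank past the 3′ end held 2 regions listed in cDC1 only and 1 shared region, and the flank before the 5′ end held 11 and 3. Counted by segments of 50 kb, the emptiest stretch for pDC lay 250 to 100 kb from the 5′ end on the side of the 3′ end. It covers the 3′ and middle parts of the gene and part of the flank past the 3′ end. There 26 intervals were listed in cDC1 and 0 in pDC. Toward the 5′ end the lists came closer, with 10 cDC1 and 4 pDC intervals in the first 50 kb of the gene. The 50 kb before the 5′ end held 14 cDC1 and 3 pDC intervals. Centres of neighbouring regions were a median of 4.07 kb apart, and the widest gap was 17.8 kb.

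**Figure D1:**
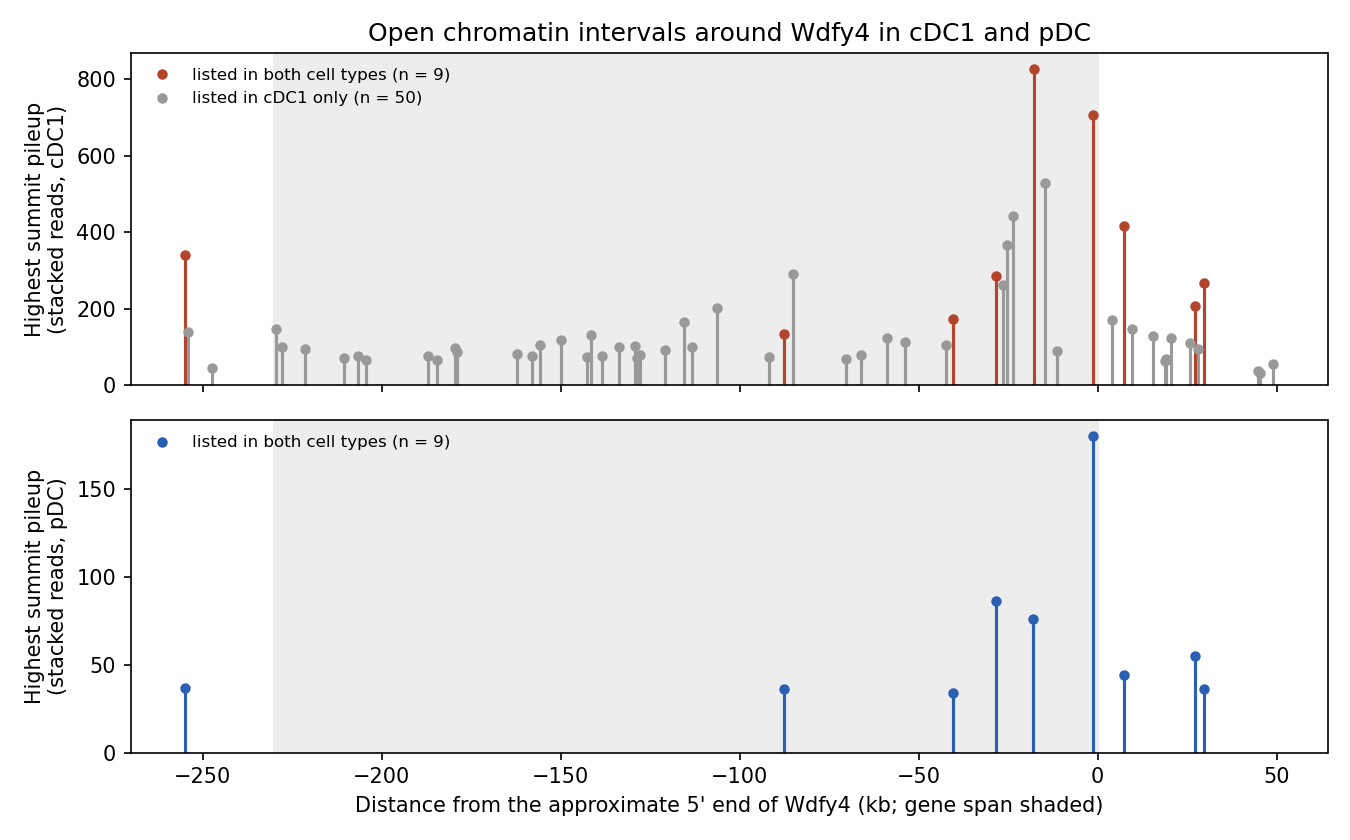
Highest summit pileup (stacked reads, linear axis) of each interval against the distance of its centre from the approximate 5′ end of Wdfy4 in kb, for cDC1 above and pDC below on an axis of its own; the gene span is shaded. In cDC1 50 grey intervals fill the gene and its flanks between the 9 shared ones, with the highest pileup of 827 at −17.9 kb, and in pDC the 9 intervals have their highest pileup of 180 at −1.38 kb.

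The height of an interval is given as its summit pileup, the number of reads stacked at the highest point, which was recovered as a whole number from the fold enrichment and −log10 p that MACS2 wrote for each summit. The same values give the local background, the pileup that MACS2 took as the level without a peak at that place. In the window, a whole pileup was recovered for 70 of 70 summits in cDC1 and 10 of 10 in pDC. The lowest background of a list, its genome-wide level, was 12.0 reads in cDC1 and 6.88 in pDC, a ratio of 1.75. Over the 40721 shared regions of the series, the pileup was a median of 3.14 times higher in cDC1 than in pDC. Both factors were used below to scale pileups, since depth and signal per library cannot be told apart with 1 list per cell type.

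The region next to the 5′ end of Wdfy4 was among the strongest of the window in both cell types. This region, chr14:33998173-33999068, has its centre 1.38 kb inside the approximate gene span. The gene end is known only as about 34.00 Mb, so whether the region holds a transcription start was not determined. It is called promoter-proximal here by its place alone. The region had a pileup of 706 in cDC1 and 180 in pDC. Its −log10 q reached 496 in the cDC1 list, against 114 in the pDC list. It was the highest of the pDC window and the second highest of the cDC1 window by either measure. In the whole pDC list it stood ahead of 96.4% of intervals by −log10 q and of 94.7% by pileup. Divided by the genome-wide median ratio, its pileup was 1.25-fold higher in cDC1 (95% interval 1.06 to 1.48), and divided by the ratio of lowest backgrounds it was 2.25-fold higher. Each list placed 7 footprints in it, with 3 pairs that share at least 50% of the bases of both partners. Tag counts, the numbers of reads scored at a footprint, were 1559, 1436 and 1414 in cDC1 against 397, 421 and 414 in pDC for these pairs. Scaled by the median ratio of 3.28 over 91319 footprint pairs of the series, the cDC1 over pDC ratios were 1.20 (1.07 to 1.34), 1.04 (0.934 to 1.16) and 1.04 (0.934 to 1.17). The promoter-proximal footprints were thus close to the typical shared footprint in their ratio.

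Of the 9 shared regions, the one with the highest scaled pileup ratio lay inside the gene, 17.9 kb from its 5′ end, at chr14:33981788-33982451. Its pileup of 827 in cDC1 was the highest of the window, against 76 in pDC, and its −log10 q reached 540 in the cDC1 list, against 38.7 in the pDC list. The scaled pileup was 3.46-fold higher in cDC1 (2.74 to 4.44), or 6.23-fold by lowest backgrounds. The 1 footprint pair had 1682 tags in cDC1 and 158 in pDC, a scaled ratio of 3.25 (2.76 to 3.85). In cDC1 this region stood above the promoter-proximal one, with 1.17 times its pileup (1.06 to 1.30), whereas in pDC it had 0.422 times (0.319 to 0.555). This order of pileups is taken within each list and needs no scaling between the cell types. Fold enrichment was lower in this region than in the promoter-proximal one in both lists. It was 11.1 against 12.5 in cDC1 and 7.26 against 10.3 in pDC. The cDC1 local background was 73.7 reads in this region and 55.5 in the promoter-proximal one.

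A region 7.38 kb before the 5′ end, chr14:34006934-34007832, showed the same direction. Its pileup was 417 in cDC1 against 44 in pDC, and it held 11 footprints in cDC1 and 6 in pDC. The pileup was 3.02-fold higher in cDC1 after median scaling (2.21 to 4.21) and 5.43-fold by lowest backgrounds. Its best footprint pair had 1069 tags in cDC1 and 80 in pDC, a scaled ratio of 4.08 (3.25 to 5.19), the highest of the window. Relative to the promoter-proximal region, its pileup was 0.591 (0.522 to 0.668) in cDC1 and 0.244 (0.172 to 0.342) in pDC.

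The shared regions at the outer ends of the window also stood higher in cDC1. Past the 3′ end of the gene, chr14:33744808-33745456 had a pileup of 339 in cDC1 and 37 in pDC, 2.92-fold higher after median scaling (2.07 to 4.21), and a footprint pair with 814 tags in cDC1 and 74 in pDC (scaled ratio 3.36, 2.64 to 4.32). Before the 5′ end, 29.8 kb out, chr14:34029478-34030211 had a pileup of 267 in cDC1 and 36 in pDC, a scaled 2.36-fold (1.66 to 3.44). Its pairs differed from each other, with 468 tags in cDC1 and 41 in pDC in one (scaled 3.48, 2.53 to 4.92) and 381 and 78 in the other (scaled 1.49, 1.17 to 1.93).

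A further 4 shared regions had median-scaled pileup ratios under 2, and between 1.90 and 2.91 by lowest backgrounds. At 87.5 kb inside the gene, chr14:33912303-33912736 had a pileup of 134 in cDC1 and 36 in pDC (scaled ratio 1.18, 0.814 to 1.76) and a footprint pair of 314 tags in cDC1 and 82 in pDC (scaled 1.17, 0.914 to 1.51). At 27.2 kb before the 5′ end, chr14:34026948-34027376 had 206 in cDC1 and 55 in pDC (scaled 1.19, 0.881 to 1.64), and at 40.3 kb inside the gene, chr14:33959425-33959907 had 173 in cDC1 and 34 in pDC (scaled 1.62, 1.12 to 2.41). Neither of these had a footprint pair. The fourth, chr14:33971213-33971945 at 28.4 kb inside the gene, was the second highest of the pDC window, with a pileup of 286 in cDC1 and 86 in pDC (scaled 1.06, 0.829 to 1.36). It held 0 footprints in cDC1 and 8 in pDC, although the cDC1 −log10 q of 71.6 was above the 45.0 of pDC. In the window 4 of 59 cDC1 and 0 of 9 pDC intervals held no footprint, beside 1.72% of the whole cDC1 list and 1.66% of the pDC list.

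Counted by footprint pairs, 4 of the 6 shared regions that had a pair were at least 2-fold higher in cDC1, where 8.93% of all regions with a pair were. In pDC 0 of 6 were at least 2-fold higher, where 12.6% of all were. By median-scaled pileup 4 of 9 shared regions reached 2-fold in the cDC1 direction (9.44% of all shared regions) and 0 of 9 in pDC (13.8%). By background-scaled pileup 8 of 9 were at least 2-fold higher in cDC1, beside 39.9% of all. The median scaled tag ratio of the 6 regions was 3.30, or 1.72 on the log2 scale, and the lowest of the 11 single pairs was 1.04. Taking the highest tag count of each cell type without pairing gave a lower log2 median of 0.56 over 8 regions, of which 3 were at least 2-fold higher in cDC1. Pairs that share at least 1 bp also gave 3 of 8, and scaling of the pairs by lowest backgrounds gave 6 of 6.

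**Figure D2:**
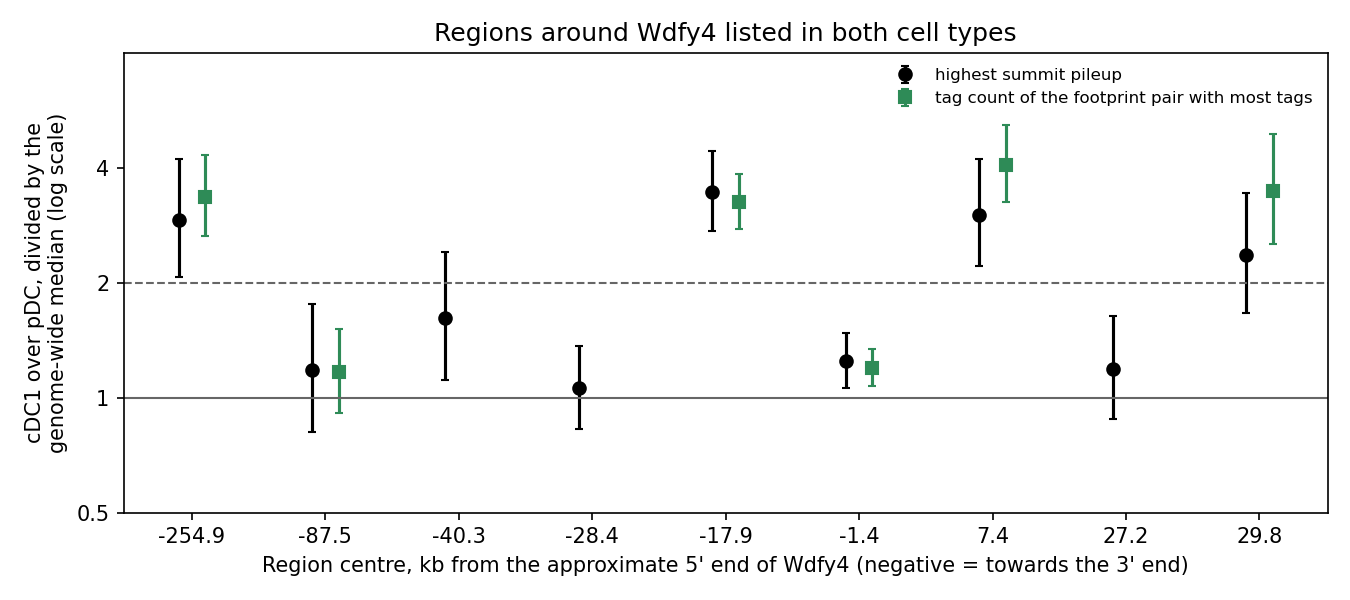
cDC1 over pDC ratio of the 9 shared regions, divided by its genome-wide median (log axis), for the summit pileup (circles) and the tag count of the best footprint pair (squares, 6 regions), ordered by distance from the approximate 5′ end of Wdfy4 in kb; bars are 95% counting intervals and the dashed line marks 2-fold. The regions at −254.9, −17.9, 7.38 and 29.8 kb lie above the dashed line in both measures, and those at −87.5 and −1.38 kb lie near 1.

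Shared regions were placed alike in both cell types. The summits of cDC1 and pDC were 5 to 85 bp apart, with a median of 36 bp, and 8 of 9 were within 50 bp. The overlap that defines a shared region already limits this distance. The same distance over all shared regions of the series is not given here, so it is not read as a trait of the locus. Footprints were compared base by base. Of the cDC1 footprints 24 of 280 had at least 50% of their bases under pDC footprints, or 8.57% (5.83 to 12.4), beside 28.6% over the whole cDC1 list. Of the pDC footprints 17 of 44 lay under cDC1 footprints in the same way, or 38.6% (25.7 to 53.4), beside 44.4% over the whole pDC list. Intervals listed in cDC1 only held 232 of the 280 cDC1 footprints. Inside the shared intervals 24 of 48 cDC1 footprints were shared, or 50%, beside 47.9% for such intervals of the series, and for pDC the 38.6% stood beside 52.7%. Tag counts had a median of 250.5 in cDC1 and 79.5 in pDC, and the highest were 1682 and 421.

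**Figure D3:**
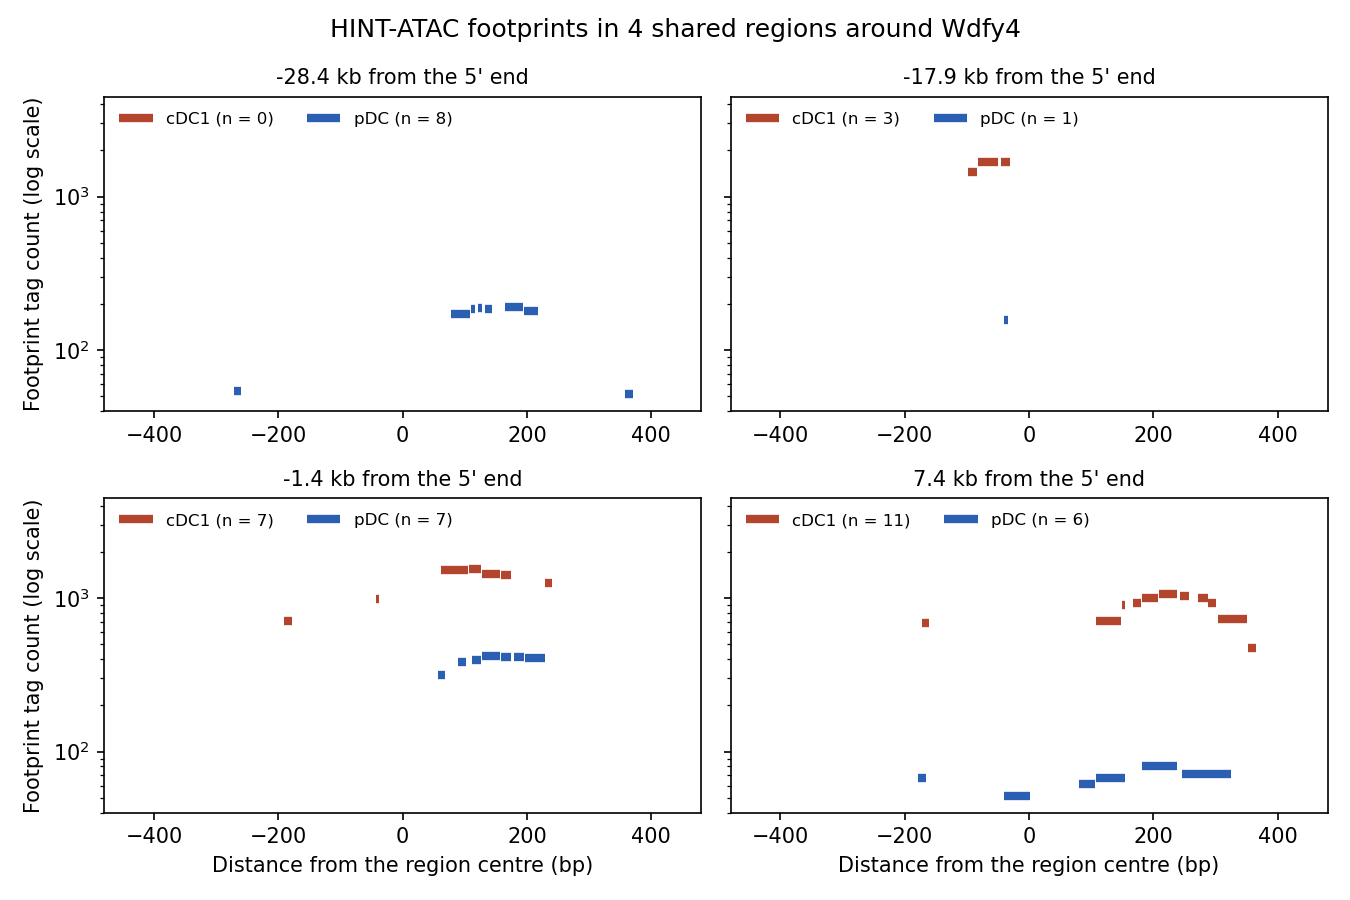
Footprints of 4 shared regions as bars at their tag count (log axis) against the distance from the region centre in bp, cDC1 in red and pDC in blue, with each panel headed by its distance from the approximate 5′ end of Wdfy4. The region at −28.4 kb holds 0 cDC1 and 8 pDC footprints, the one at −17.9 kb 3 and 1, the one at −1.38 kb 7 and 7, and the one at 7.38 kb 11 and 6.

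Among the 50 regions listed in cDC1 only, the strongest lay around the shared region at −17.9 kb. chr14:33985036-33985671, 14.6 kb inside the gene, had a −log10 q of 249, a pileup of 528 and 10 footprints of up to 1196 tags, and ranked 367 of 42640 intervals listed in cDC1 only across the genome. On the other side of the shared region, chr14:33976012-33976529 had a pileup of 442 and a −log10 q of 185, chr14:33974341-33975102 had 367 and 126, and chr14:33973453-33973835 had 261 and 59.3. Further into the gene, at 85.0 kb, chr14:33914720-33915258 had a pileup of 290 and a −log10 q of 97.1. The most footprints of a cDC1 region, 12, were found both in chr14:33745627-33746176 past the 3′ end and in chr14:33769415-33771398 at the edge of the gene span. The second of these was 1984 bp wide with 6 summits. The 50 had a median pileup of 95.5, beside 60 over all intervals listed in cDC1 only, and 28 of them were above the median of the whole cDC1 list. Their median −log10 q was 9.31, beside 13.5 over all intervals listed in cDC1 only.

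Absence from the pDC list need not mean closed chromatin in pDC, since the pDC library gave lower counts. Of the 50 regions, 21 (42.0%) had a highest tag count that, after division by the median pair ratio, still exceeded 66 tags, the first quartile of the pDC intervals, beside 27.7% of all intervals listed in cDC1 only. With summit pileups in place of tags, 25 of 50 were above the first quartile after median scaling (28% of all intervals listed in cDC1 only) and 47 of 50 after scaling by lowest backgrounds (58% of all). The lowest pileup of any listed pDC summit was 17, and 47 of 50 reached it after median scaling (56.8% of all) and 50 of 50 by lowest backgrounds (95.4% of all). Pileups include the local background. At the cDC1 intervals of the window this background was a median of 3.71 times the lowest, beside 1.42 over the whole cDC1 list. The median −log10 q of the 50 was 9.31, beside 13.5 over all intervals listed in cDC1 only, so a high scaled pileup here need not mean a strong peak. The pDC level at the 50 regions is not given by the lists.

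The local background of the cDC1 list was high across the locus. In cDC1 the background at the 59 intervals was a median of 3.71 times the lowest of the list (range 1.00 to 6.43), beside 1.42 over the whole cDC1 list. In pDC it was a median of 1.40 times the lowest at the 9 intervals (range 1.00 to 2.41), beside 1.47 over the whole pDC list. Of the cDC1 intervals of the window 52 of 59 were above the 75th percentile of their list in background, and of the pDC intervals 1 of 9. At the 9 shared regions the relative background was a median of 3.10-fold higher in cDC1 than in pDC (1.92 to 4.40), and at least 2-fold in 8 of 9, beside 5.99% of all shared regions and a median of 1.21. The local background is read from a stretch round the summit that includes neighbouring intervals and the region itself, so these 9 values overlap in their reads, and wide low accessibility and many close intervals cannot be told apart in it.

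**Figure D4:**
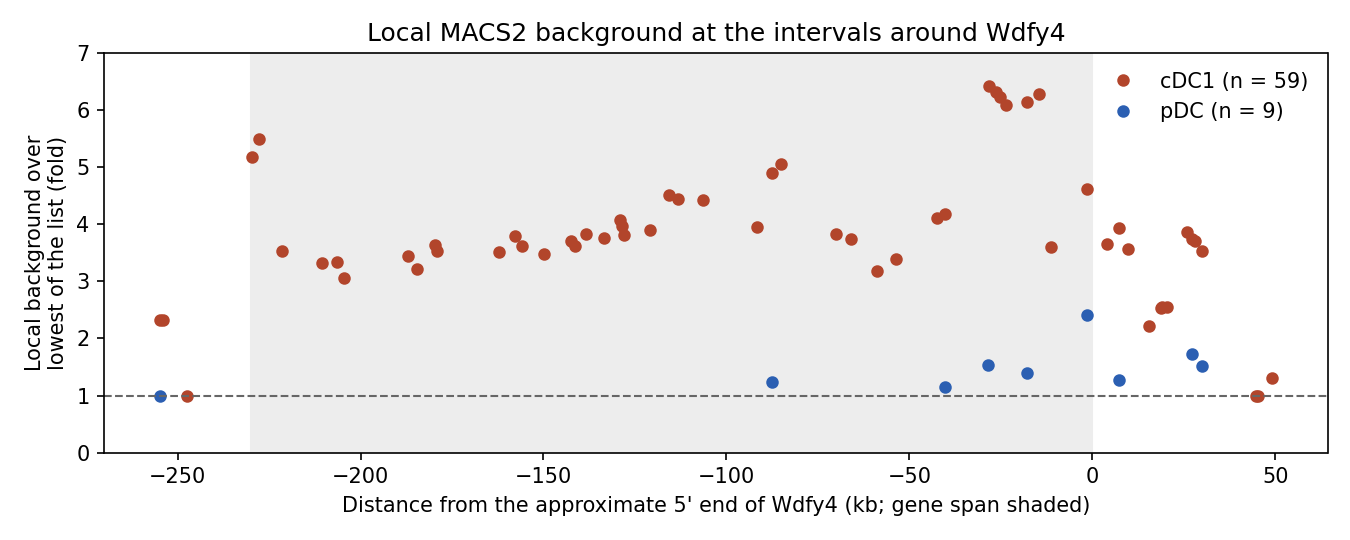
Local MACS2 background of each interval divided by the lowest background of its own list (linear axis) against the distance from the approximate 5′ end of Wdfy4 in kb, cDC1 in red (n = 59) and pDC in blue (n = 9), with the gene span shaded and 1 dashed. The cDC1 points lie between 1.00 and 6.43 and are highest in the first 50 kb of the gene, next to its 5′ end. The pDC points lie between 1.00 and 2.41.

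This background enters the significance of the intervals. The cDC1 intervals of the window had a median −log10 q of 10.6, beside 30.4 over the cDC1 list, and 39 of 59 were below that list median. By pileup they had a median of 103, beside 92 over the list, and 37 of 59 were above it. Their median fold enrichment was 2.36, beside 4.69 over the list. The pDC intervals had a median −log10 q of 14.9 (list 13.5), a median pileup of 44 (list 47) and a median fold enrichment of 4.62 (list 4.16). Fold enrichment was higher in pDC at 3 of the 9 shared regions, beside 16.9% of all shared regions. At these 3 it was 3.67 in cDC1 and 7.57 in pDC at 28.4 kb inside the gene, 2.25 and 3.89 at 87.5 kb, and 3.39 and 3.92 at 40.3 kb. The unscaled pileup was higher in cDC1 at all 9, where the median cDC1 over pDC ratio of all shared regions of the series was 3.14.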

How the data were processed

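Omni-ATAC-seq of sorted cDC1 and pDC (2 replicates per cell type, merged by the authors) was analysed. Per the paper's methods and the submitters' processing notes, the authors used Trim Galore for trimming, Bowtie2 for alignment to mm9, samtools for filtering, MACS2 for peaks and HINT-ATAC for footprints (no versions are stated). The deposited peak lists hold, per summit, the fold enrichment (a ratio over the MACS2 background), −log10 p, −log10 q and a score. The deposited footprint lists hold a tag count, read as an unscaled count; over which bases it was counted was not stated. Positions pass the GRCm38 chromosome ends on 8 of 21 chromosomes and were kept as mm9. Total depth is unknown from the lists.

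Summits of one interval were combined, and the interval carries the values of the summit with the largest −log10 q. Intervals were shared at an overlap of 1 bp, footprints at 50% of their bases, and footprint pairs at 50% of both. The pileup was solved from fold enrichment, taken as (pileup + 1) / (background + 1), and the Poisson −log10 p. It came out whole within 0.001 of −log10 p for 99.9% of 94222 cDC1 and 100% of 59941 pDC summits, and the next whole number never fell within that tolerance. The methods name a MACS2 setting without a local background, but the background was above its lowest value at 73.9% of cDC1 and 82.2% of pDC summits. The methods also name a filter on q, while the deposited lists start at a −log10 q of 1.30 in both. Ratios have exact 95% intervals and shares Wilson intervals, which cover counting error only; reads without molecular identifiers are not independent molecules, and nearby cuts of one fragment may both count.

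No test was made, since each cell type has 1 merged list, and no source says whether replicates were separate cultures. The members, motifs and lists were chosen with earlier results of these data known. Regions described singly were the one next to the 5′ end, the 5 with the largest −log10 q in each list, the 5 such regions among those of cDC1 alone, the shared ones with the highest and lowest tag ratios, and those with most footprints; the remaining shared regions were added after their values were seen. No mm9 annotation was used, so the labels were not checked against marker loci and no exon or intron is given. Alternatives covered overlap, limits on q and tags, list length, window and scaling; the pileup and background measures were chosen after seeing the data. Pileup recovery, footprint pairing and sharing, the scaling and fold call of pairs and the merging of intervals were tested on simulated data. The other steps were not. Python 3.11.15, numpy 2.4.6, pandas 2.3.3, scipy 1.17.1 and matplotlib 3.10.9 were used.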

Additional observations from a re-analysis of the deposited data

How the results depend on the processing

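No paired analysis was possible because the replicates were merged into 1 list per cell type. Under the alternatives run, cDC1 had more intervals than pDC in the window and 0 shared regions were at least 2-fold higher in pDC. At a −log10 q of at least 10 the window held 30 cDC1 and 6 pDC intervals, and at 50 it held 13 and 1, with 92.3% of the cDC1 intervals listed in cDC1 only. With the cDC1 list limited to the length of the pDC list, 25 cDC1 intervals were left, 68.0% of them in cDC1 only, and 11.1% of the pDC intervals were in pDC only. In the gene span alone there were 42 cDC1 and 5 pDC intervals, 1 of 3 regions with a pair was at least 2-fold higher in cDC1, and the log2 median fell to 0.26. The log2 median was 2.09 when scaled by mean tag counts, 2.63 by lowest backgrounds and 0.69 with pairs that share 1 bp, and the 2-fold count was 8 of 9 by background-scaled pileup. The share of pDC footprints was 59.1% at 1 bp; the cDC1 share was 3.55% for footprints with no fewer tags than the list median, 4.62% in the gene span and 50% inside shared intervals. Of the regions in cDC1 only, 9 were above the pDC median and 47 above the first quartile by background-scaled pileup. Values by mean tag counts and lowest backgrounds differ from the main ones by construction of the factor. The lower pDC counts limit what can be called absent there.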

Other observations

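Toward the 3′ end of Wdfy4 the cDC1 intervals were of middling pileup but low −log10 q for their list. Between 200 and 150 kb inside the 5′ end, the 7 cDC1 intervals had pileups of 67 to 106, at the 36.9th to 55.0th percentile of the cDC1 list. By −log10 q they stood at the 3.14th to 31.5th percentile, with fold enrichments of 1.65 to 2.40. Their median background was 3.53 times the lowest, and pDC had 0 intervals there. At the outer edge of the window, 44.8 kb, 45.4 kb and 49.0 kb before the 5′ end, 3 cDC1 regions had pileups of 37, 32 and 55. Their local backgrounds were 1.00, 1.00 and 1.31 times the lowest of the cDC1 list. In all, 3 intervals of the window were at that lowest background. The one not at this edge lay past the 3′ end, 247 kb from the 5′ end. Of the footprints, 13 in cDC1 and 4 in pDC ended at the right end of their interval and 0 in either list began at its left end. The same shares over the whole footprint lists are not given here, so these counts are not read as a trait of the locus.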
